A study of Mus musculus with 4 samples.

Results

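The 37 genes described here encode parts of the lysosome: proteins of its membrane, the acid hydrolases in its lumen with their helper proteins, subunits of its proton pump, and the MiT/TFE transcription factors. They were chosen by name as known lysosomal genes, with earlier results of these data known, so no test over the list was made. All 37 were found among the 24346 genes with a deposited value. The libraries came from *in vitro* MDSCs, immature myeloid cells grown from BM cells of female C57BL/6J mice of 6 to 8 weeks over 4 days of culture with 40 ng/ml GM-CSF. Control cultures received GM-CSF alone, and G-CSF cultures received GM-CSF together with 5 ng/ml G-CSF, so GM-CSF was common to both groups. Each group held 2 libraries, and the question was how G-CSF changes expression in these cells. The study calls the libraries of a group biological replicates, and the sources used here do not say whether these came from separate mice, from separate cultures or from pooled BM, so the p-values measure only the spread between these libraries. Values are FPKM, which scale the fragments of a gene to the length of its transcripts and to the size of the library.

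Lysosomes break down proteins, sugars and lipids that reach them from outside the cell, from phagosomes or by autophagy. The V-ATPase pumps protons into the lumen, and the hydrolases work at the acid pH that results. TFEB, TFE3 and MITF bind short DNA elements in the promoters of many lysosomal genes and can raise the expression of these genes together. Macrophages and dendritic cells are rich in lysosomes, whereas neutrophils keep part of the same enzymes in their granules.

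The 4 libraries held between 12450000 and 15600000 reads, as estimated from the values, and each member rested on an estimated 73 reads or more in every library. The cultures were not sorted, so fewer cells of a type and less RNA per cell cannot be told apart in any value below. In cultures of this kind, flow cytometry in the study found the percentages of MDSCs, dendritic cells and macrophages unaffected by G-CSF. The study also reports a higher proportion of monocytic and a lower proportion of polymorphonuclear MDSCs with G-CSF. Marker genes of several cell types moved with the groups, and their part in the lysosomal results was not tested. Calls are at a limma adjusted p under 0.05, which 9.27% of all genes tested passed as lower and 10.9% as higher. The 10 macrophage markers summed to 455 and 481 FPKM in Control and to 378 and 389 FPKM with G-CSF, with 3 of 9 tested called lower and *Vsig4* listed at 0 in every library. The 10 dendritic cell markers, of which *Cd74* was the highest, summed to 3507 and 2986 FPKM in Control and to 1939 and 1559 FPKM with G-CSF. Of these, 6 were called lower: *Cd74*, *Ciita*, *Cd209a* and the MHC class II genes *H2-Aa*, *H2-Ab1* and *H2-Eb1*. *Itgax*, *Ccr7*, *Flt3* and *Zbtb46* were not called, and the groups overlapped in *Flt3* and *Zbtb46*. Of 11 markers of MDSCs and the neutrophil line that had a value, 6 were called lower and 2 higher, the latter being *Mpo* and *Elane* of the primary granules. Markers of mast cells and basophils (4 of 6 tested) and of eosinophils (2 of 3 tested) were also called lower, while T cell, B cell and erythroid markers each summed to at most 5.36 FPKM in any library. The protocol in the labels mentions liver tissue, and 4 of 5 hepatocyte markers, *Alb* among them, were listed at 0 in every library.

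Most of the lysosomal genes stood lower in G-CSF than in Control, by small amounts. Of the 37 members, all of which passed the filter on low values, 9 were called lower and 0 higher at an adjusted p under 0.05 (limma on log2(FPKM + 0.1), Benjamini-Hochberg adjustment over 11717 genes). Over all genes tested, 9.27% were called lower and 10.9% higher. The members lay high in level, with 31 of the 37 at or above the median of the genes tested and the lowest mean at 7.1 FPKM. When a mean of at least 5 FPKM was required, 10 members were called lower, beside 12.6% of all genes then tested. At an unadjusted p under 0.05 (limma), 19 members were lower and 0 higher, where 4425 of the 11717 genes tested passed in either direction. No member combined an adjusted p under 0.05 with a fold change over 2, which 1.18% of all genes did, nor did any at an unadjusted p under 0.05. The median log2 fold change of the members was -0.16, a level of 89.5% of Control, beside a median of 0.01 over all genes tested, and 30 members had a log2 fold change below 0.

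The same pattern was seen in the separate libraries. In 25 of the 37 members (67.6%), both G-CSF values lay below both Control values, which was so in 32.2% of all genes tested. Both G-CSF values lay above both Control values in 2 members, *Asah1* and *Atp6v1a*, against 34.0% of all genes tested, and the groups overlapped in the other 10. Summed over the members, the level was 7241 and 7212 FPKM in Control and 5956 and 6328 FPKM with G-CSF. *Psap* alone made up a large part of these sums, and without it they were 3841 and 3769 FPKM in Control and 3207 and 3353 FPKM with G-CSF. In the median member, replicates differed by 0.06 on the log2 scale in Control and by 0.08 with G-CSF. The absolute log2 fold change exceeded the replicate differences of both groups in 21 of the 37 members, beside 55.4% of all genes tested. The calls rest on small differences between few libraries, and 0 members were called when limma's variance prior did not follow the level of the genes. With any 1 of the 4 libraries left out, the median log2 fold change of the members ranged from -0.19 to -0.12. Calls without 1 library are described with the other settings below.

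**Figure D1:**
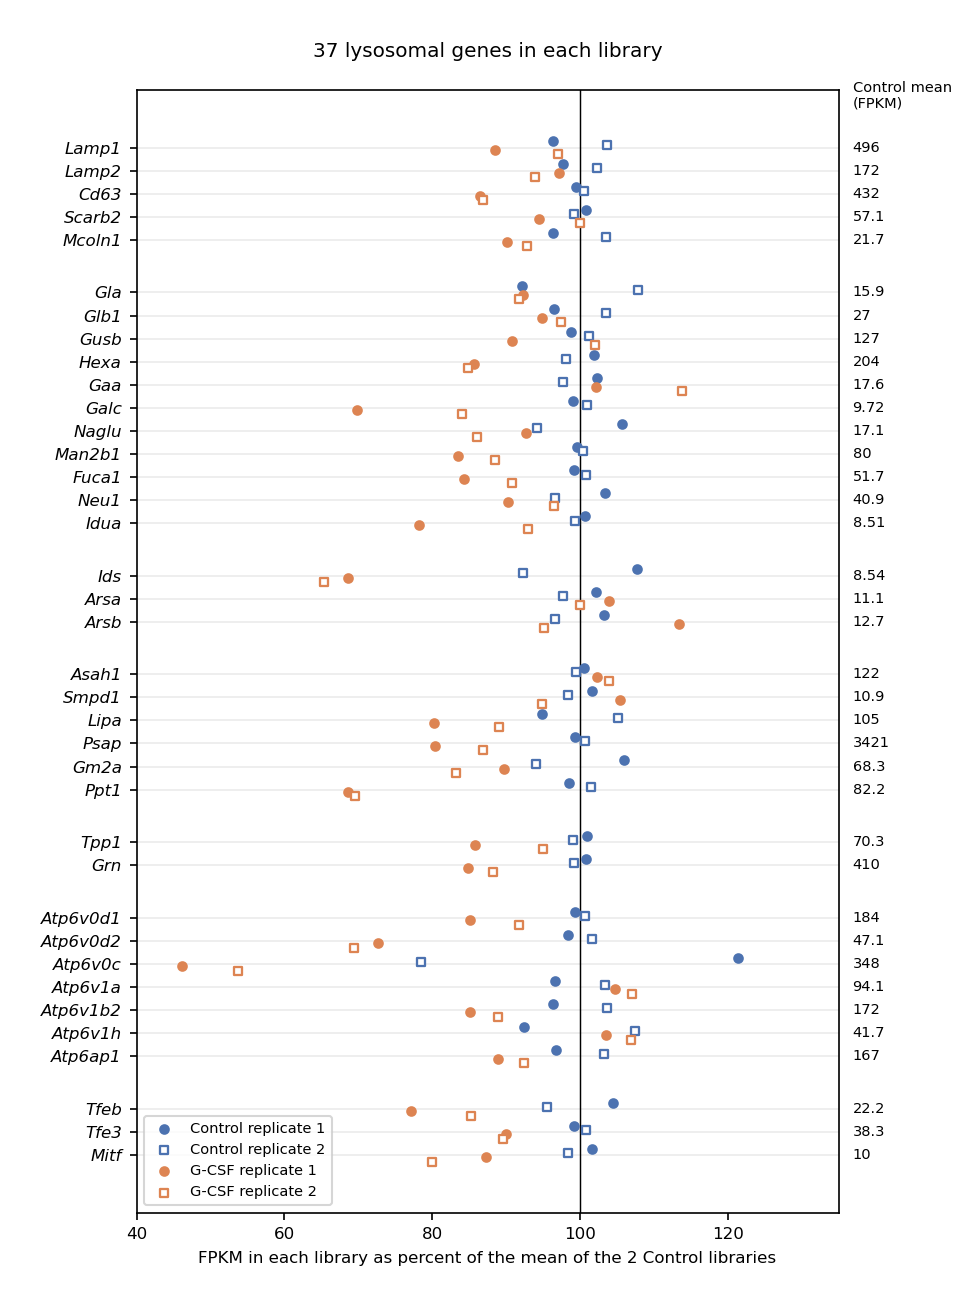
The plot shows, for each of the 37 lysosomal genes (rows), the FPKM of the 4 libraries as a percentage of the mean of the 2 Control libraries (horizontal axis), with that mean at the right, circles for replicate 1 and squares for replicate 2, blue for Control and orange for G-CSF. In 25 rows both orange symbols lie to the left of both blue symbols.

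Among the membrane proteins, *Cd63* was called lower and the other 4 were not called. *Cd63* encodes a tetraspanin of late endosomes, lysosomes and granules. It stood at 430 and 435 FPKM in Control and at 374 and 376 FPKM with G-CSF. The replicates lay close together in both groups, and the log2 fold change was -0.21 ± 0.0381 (SE, limma adjusted p = 0.0259). A processed pseudogene shares 6.5% of the 75-base windows of *Cd63* transcripts. *Lamp1* and *Lamp2* encode the most abundant glycoproteins of the lysosomal membrane. *Lamp1* stood at 478 and 514 FPKM in Control and at 439 and 482 FPKM with G-CSF, with overlap between the groups and a 95% interval from 82.7% to 104% of Control. *Lamp2* stood at 168 and 176 FPKM in Control and at 167 and 162 FPKM with G-CSF, and its interval ran from 88.2% to 104% of Control. *Scarb2*, the receptor that carries beta-glucocerebrosidase to the lysosome, had 57.5 and 56.6 FPKM in Control and 53.9 and 57.1 FPKM with G-CSF. *Mcoln1* encodes a channel that releases calcium from lysosomes, and its 19.5 and 20.1 FPKM with G-CSF lay just below the 20.9 and 22.4 FPKM of Control (adjusted p = 0.194, limma).

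Of the 11 glycosidases, which remove sugars from glycoproteins, glycolipids and glycosaminoglycans, *Hexa* and *Man2b1* were called lower and 0 higher. *Hexa* encodes the alpha subunit of beta-hexosaminidase, which breaks down ganglioside GM2. Its level was 208 and 200.4 FPKM in Control and 175 and 173 FPKM with G-CSF, and the log2 fold change came to -0.23 ± 0.0411 (SE, limma adjusted p = 0.025). *Man2b1*, the lysosomal alpha-mannosidase, had 79.6 and 80.3 FPKM in Control and 66.7 and 70.8 FPKM with G-CSF, and the log2 fold change came to -0.22 ± 0.0477 (SE, limma adjusted p = 0.0365). In both genes the G-CSF values lay below the Control values. Exons of *Tmem202* on the opposite strand cover 12.8% of the exonic bases of *Hexa*, and whether counting used strand is not stated. Both G-CSF values were also lower in *Galc*, *Naglu*, *Fuca1*, *Neu1* and *Idua*, which did not pass the test.

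*Galc* encodes the enzyme that removes galactose from the myelin lipid galactosylceramide. It had the lowest log2 fold change of the glycosidases, -0.38 (adjusted p = 0.0619, limma). With G-CSF it had 6.79 FPKM in replicate 1 and 8.17 FPKM in replicate 2, and both lay below the 9.63 and 9.82 FPKM of Control. *Fuca1*, the alpha-fucosidase, also had both G-CSF values below Control, with 51.3 and 52.1 FPKM in Control and 43.6 and 46.9 FPKM with G-CSF (adjusted p = 0.0627). *Naglu*, which removes N-acetylglucosamine from heparan sulfate, had 18.1 and 16.1 FPKM in Control and 15.9 and 14.7 FPKM with G-CSF. *Neu1*, the sialidase, had 42.3 and 39.47 FPKM in Control and 36.9 and 39.42 FPKM with G-CSF. *Idua*, the iduronidase, had 8.57 and 8.45 FPKM in Control and 6.66 and 7.91 FPKM with G-CSF. In these 3 the gap between the closest libraries of both groups was small, and the adjusted p-values ran from 0.174 to 0.292. The groups overlapped in *Gla* (alpha-galactosidase), *Glb1* (beta-galactosidase), *Gusb* (beta-glucuronidase) and *Gaa* (acid alpha-glucosidase). Both *Gla* libraries with G-CSF (14.7 and 14.6 FPKM) lay near the lower of the Control libraries (14.7 and 17.2 FPKM). *Glb1* had 26.1 and 28.0 FPKM in Control and 25.6 and 26.4 FPKM with G-CSF. *Gusb*, the highest of these 4, had 126 and 129 FPKM in Control and 115 and 129.8 FPKM with G-CSF. Replicate 2 with G-CSF was thus the highest *Gusb* library. *Gaa*, with 18.02 and 17.2 FPKM in Control and 17.99 and 20.04 FPKM with G-CSF, had the highest log2 fold change of all members, 0.11, with a 95% interval from 94.7% to 123% of Control.

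The 3 sulfatases take part in the breakdown of glycosaminoglycans and sulfatides, and only *Ids* among them was called. *Ids*, on the X chromosome of GRCm38 (70343069 to 70365084, minus strand), encodes iduronate 2-sulfatase. Its values were 9.21 and 7.88 FPKM in Control and 5.87 and 5.59 FPKM with G-CSF, and both G-CSF values lay well below Control. The log2 fold change was -0.57 ± 0.101 (SE, limma adjusted p = 0.0249), or 67.6% of Control with a 95% interval from 56.5% to 80.8%. The lowest estimate of reads in a library was 192. *Arsa* (arylsulfatase A) had 11.4 and 10.9 FPKM in Control and 11.5 and 11.1 FPKM with G-CSF. *Arsb* (arylsulfatase B) had 13.1 and 12.3 FPKM in Control and 14.4 and 12.1 FPKM with G-CSF. The groups overlapped in both, and exons of genes on the opposite strand cover 18.8% of the exonic bases of *Arsa* and 39.9% of those of *Arsb*.

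The genes of lipid breakdown held the most abundant member and the member with the smallest p. *Ppt1* encodes palmitoyl-protein thioesterase, which removes fatty acids from modified proteins. Its level was 81.0 and 83.5 FPKM in Control and 56.4 and 57.2 FPKM with G-CSF. The gap between the groups was many times the gap between replicates, and the log2 fold change was -0.53 ± 0.0426 (SE, limma adjusted p = 0.00909). This is 69.1% of Control, with a 95% interval from 64.1% to 74.5%. Leaving out any 1 library kept the value of *Ppt1* between -0.56 and -0.51, with limma adjusted p-values from 0.0748 to 0.0997. The gene lies on chromosome 4 of GRCm38 (122836242 to 122859175), and exons of *Cap1* on the opposite strand cover 3.5% of its exonic bases.

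*Psap* encodes prosaposin, the precursor of the saposins that present sphingolipids to their hydrolases. It was the most abundant of the 37 genes per length of transcript, with 3399.6 and 3443 FPKM in Control and 2749.5 and 2975 FPKM with G-CSF. Both G-CSF values lay below Control, replicate 1 the lower of them, and the log2 fold change was -0.26 ± 0.0587 (SE, limma adjusted p = 0.0397). Testing every gene above 0, without the filter, left 6 of the 9 calls, and *Psap* was among those lost (limma adjusted p = 0.117). *Gm2a*, the activator protein that works with beta-hexosaminidase, had 72.3 and 64.2 FPKM in Control and 61.2 and 56.8 FPKM with G-CSF (log2 fold change -0.21, adjusted p = 0.109). *Lipa*, the acid lipase that hydrolyses cholesteryl esters, had 99.5 and 110.3 FPKM in Control and 84.2 and 93.4 FPKM with G-CSF (log2 fold change -0.24, adjusted p = 0.0839). In both genes the groups did not overlap, but replicates differed by up to 0.17 on the log2 scale in *Gm2a* and by up to 0.15 in *Lipa*.

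The enzymes that act on ceramide and sphingomyelin were not called. *Asah1*, the acid ceramidase, had 123 and 122 FPKM in Control and 125 and 127 FPKM with G-CSF, and its groups did not overlap, with G-CSF the higher, at a log2 fold change of 0.04 (adjusted p = 0.446, limma). *Smpd1*, the acid sphingomyelinase, had 11.1 and 10.7 FPKM in Control and 11.5 and 10.3 FPKM with G-CSF. Its G-CSF values enclosed the Control values, and the 95% interval ran from 87.3% to 115% of Control.

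*Tpp1* encodes a tripeptidyl peptidase of the lysosome, and *Grn* encodes progranulin, which is cut to granulins there. *Grn* was called lower, with 413 and 407 FPKM in Control and 348 and 362 FPKM with G-CSF, and the log2 fold change came to -0.21 ± 0.0421 (SE, limma adjusted p = 0.0313). *Tpp1* had 71.0 and 69.6 FPKM in Control and 60.3 and 66.8 FPKM with G-CSF. Its G-CSF values were both lower but differed from each other, and the adjusted p was 0.149. Exons of a gene on the opposite strand cover 2.0% of the exonic bases of *Grn*. Without the filter its limma adjusted p was 0.0505.

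**Figure D2:**
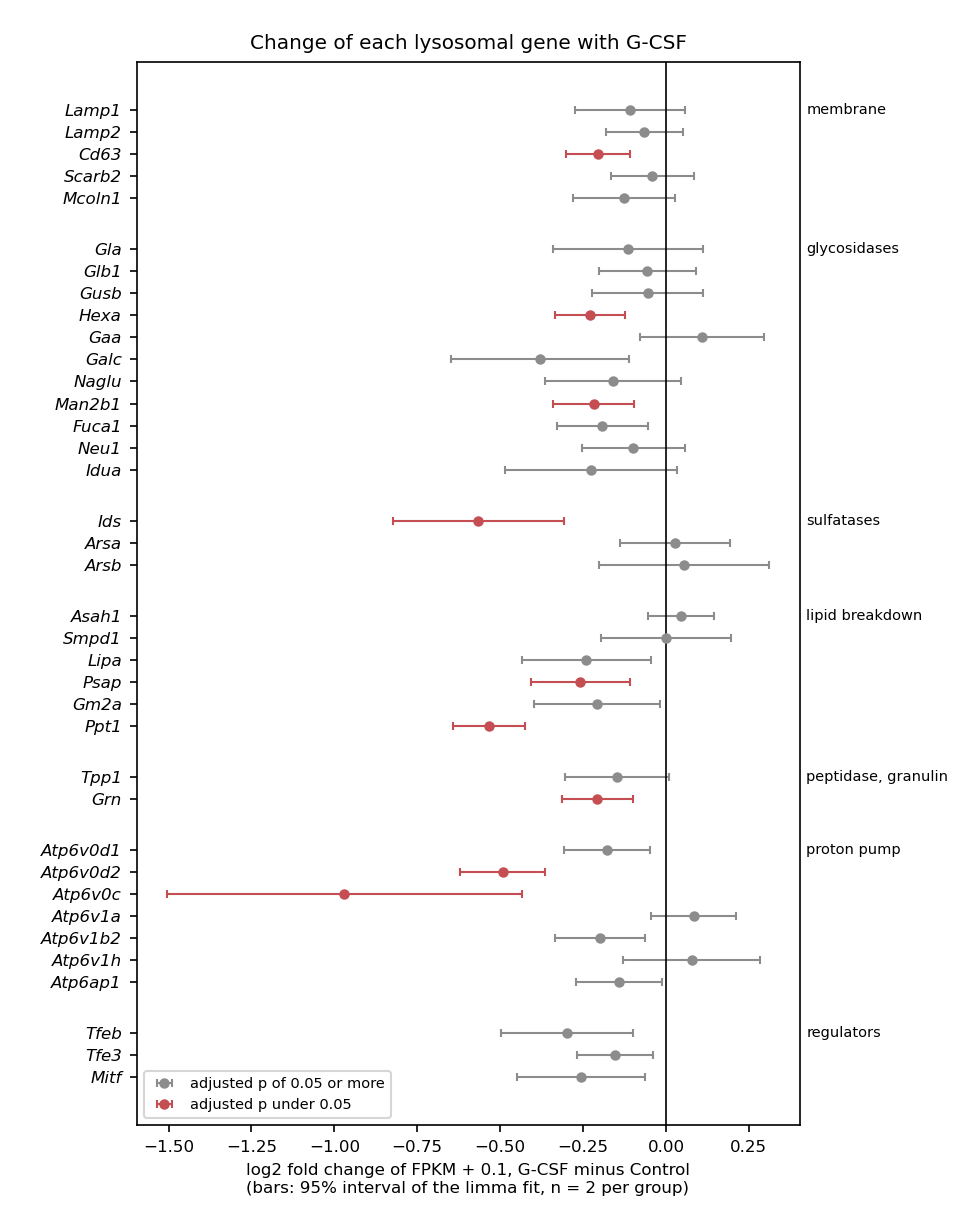
The plot gives the log2 fold change of each lysosomal gene (horizontal axis, G-CSF minus Control on the log2(FPKM + 0.1) scale) with its 95% interval from the limma fit, grouped by role. The 9 genes in red had an adjusted p under 0.05 and all lie to the left of 0, and the widest interval is that of *Atp6v0c*.

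Of 7 genes of the proton pump, *Atp6v0d2* and *Atp6v0c* were called lower and 0 higher. The V-ATPase consists of a V1 sector that hydrolyses ATP and a V0 sector in the membrane through which protons pass. In V0, subunit d joins the sectors, and mice have a broadly expressed form, *Atp6v0d1*, and a form known from osteoclasts and macrophages, *Atp6v0d2*. *Atp6v0d2* lies on chromosome 4 of GRCm38 (19876841 to 19922605, minus strand) and had 46.3 and 47.8 FPKM in Control and 34.2 and 32.7 FPKM with G-CSF. Both G-CSF values lay well below Control, and the log2 fold change was -0.49 ± 0.05 (SE, limma adjusted p = 0.012), or 71.1% of Control with a 95% interval from 65.1% to 77.6%. *Atp6v0d1* had 183 and 185 FPKM in Control and 157 and 169 FPKM with G-CSF (log2 fold change -0.18, adjusted p = 0.067). Relative to *Atp6v0d1*, the level of *Atp6v0d2* was 25.3% and 25.8% in the Control libraries, beside 21.8% and 19.3% in the G-CSF libraries. With 2 libraries in each group an exact permutation test of this ratio cannot give a two-sided p below 0.333, and none is given. The 8 osteoclast markers followed summed to 234 and 232 FPKM in Control and to 112 and 137.5 FPKM with G-CSF. *Mmp9* made up most of these sums, with 192.3 and 191.7 FPKM in Control and 77.2 and 106.6 FPKM with G-CSF. Of the 6 tested, *Ctsk* and *Mmp9* were called lower, and *Acp5* lay lower in both G-CSF libraries without passing. The groups overlapped in *Dcstamp*, *Ocstamp* and *Itgb3*, the last with a log2 fold change of 0.20. *Calcr*, the calcitonin receptor, was listed at 0 in every library. Of these markers, *Ctsk* also belongs to the cathepsins and *Acp5* to the further hydrolases described below.

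*Atp6v0c* encodes the subunit that forms the ring of V0, and its value is uncertain. It had 423 and 274 FPKM in Control and 161 and 187 FPKM with G-CSF. The Control libraries differed from each other by 0.63 on the log2 scale, the widest gap between replicates of any member in Control. The log2 fold change was -0.97 ± 0.21 (SE, limma adjusted p = 0.0362), and it ranged from -1.28 without Control replicate 2 to -0.66 without Control replicate 1. The table has a separate row for *Atp6v0c-ps2*, a processed pseudogene on chromosome 6 of GRCm38, with 568 and 762 FPKM in Control and 660.0 and 736 FPKM with G-CSF. Over its own length, the pseudogene transcript is close to that of *Atp6v0c*. Of its 391 windows of 75 bases, 80.8% occur without mismatch in an *Atp6v0c* transcript, and all 391 with at most 2 mismatches. In the other direction, 11.2% of the 2493 windows of the longest *Atp6v0c* transcript occur without mismatch in the pseudogene. With at most 2 mismatches this share is 12.6%.

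In Control, the library with the higher *Atp6v0c* had the lower *Atp6v0c-ps2*, and the sum of both rows varied less than either. This was not so with G-CSF, where both rows were higher in replicate 2 and the sum varied no less than *Atp6v0c-ps2*. The sum was 991 and 1036 FPKM in Control and 821 and 923 FPKM with G-CSF. Its log2 fold change was -0.22 ± 0.0691 (SE, limma adjusted p = 0.083), so that 8 members in place of 9 were called lower when both rows were summed, a step chosen after the values were seen. *Atp6v0c* took 42.7% and 26.4% of the sum in the Control libraries and 19.6% and 20.3% of it in the G-CSF libraries. How much of the pseudogene's value comes from reads of *Atp6v0c* was not tested.

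**Figure D3:**
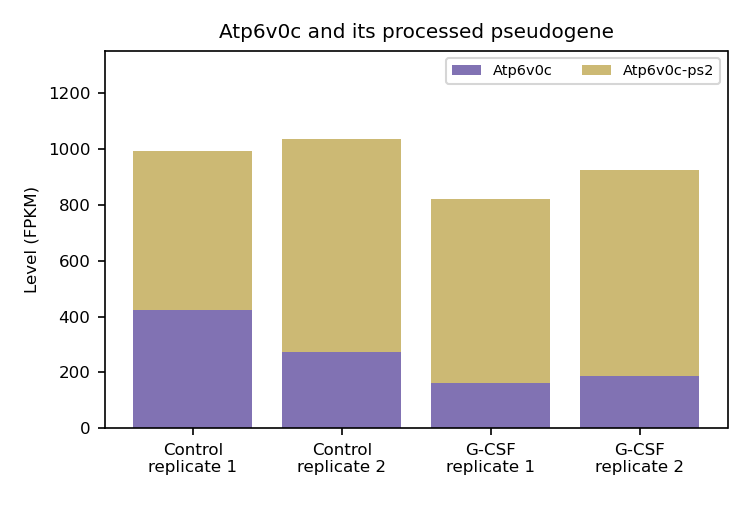
The bars stack the FPKM of *Atp6v0c* (purple) and of its processed pseudogene *Atp6v0c-ps2* (yellow) in each of the 4 libraries. The purple part ranges from 423 FPKM in Control replicate 1 to 161 FPKM in G-CSF replicate 1, and the sum lies between 821 and 1036 FPKM.

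None of the 3 V1 subunits passed the test. *Atp6v1a*, the catalytic subunit A, had 90.9 and 97.2 FPKM in Control and 98.5 and 101 FPKM with G-CSF. *Atp6v1h*, a regulatory subunit, had 38.6 and 44.9 FPKM in Control and 43.2 and 44.6 FPKM with G-CSF. *Atp6v1b2*, the B subunit of most tissues, had 166 and 178 FPKM in Control and 146.5 and 153 FPKM with G-CSF. Only *Atp6v1b2* lay lower in both G-CSF libraries (log2 fold change -0.20, adjusted p = 0.0578, limma). The accessory subunit *Atp6ap1* had 161 and 172 FPKM in Control and 148 and 154 FPKM with G-CSF (adjusted p = 0.11). The 95% interval of *Atp6v1h* ran from 91.4% to 122% of Control.

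The members *Tfeb*, *Tfe3* and *Mitf* of the MiT/TFE family lay lower in both G-CSF libraries, and none passed the test. *Tfeb*, the factor best known for driving lysosomal genes, had 23.2 and 21.2 FPKM in Control and 17.1 and 18.9 FPKM with G-CSF (log2 fold change -0.30, standard error 0.0781, adjusted p = 0.0542, limma). *Tfe3* had 38.0 and 38.6 FPKM in Control and 34.5 and 34.3 FPKM with G-CSF (log2 fold change -0.15, adjusted p = 0.0685). *Mitf*, which is also known from mast cells and osteoclasts, had 10.2 and 9.87 FPKM in Control and 8.75 and 8.02 FPKM with G-CSF (log2 fold change -0.26, adjusted p = 0.0717). Mast cell and basophil markers summed to 96.1 and 94.6 FPKM in Control and to 61.1 and 65.7 FPKM with G-CSF. *Mcpt8* made up most of these sums (57.4 and 56.8 FPKM in Control). The mast cell genes *Cma1* and *Tpsb2* had at most 0.081 and 0.24 FPKM in any library. A link of these markers to *Mitf* was not tested. The values of *Tfeb*, *Tfe3* and *Mitf* are levels of mRNA, while the activity of the 3 factors is set largely by whether they stay in the cytosol or enter the nucleus. *Tfec*, the other gene of the family, was not among the 37 genes and lay the other way, with 90.5 and 107 FPKM in Control and 112 and 126 FPKM with G-CSF (log2 fold change 0.27, limma adjusted p = 0.111). *Tfeb* passed the threshold under some settings, with an adjusted p of 0.0401 when a mean of at least 5 FPKM was required and of 0.0475 with upper-quartile scaling.

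The element bound by these factors contains the letters CACGTG, and the promoters of the members were searched for it. Promoters came from RefSeq (GRCm38.p6), and 33 of the 37 members had at least 1 there. In the 250 bases before a start site, CACGTG (which reads the same on both strands) was found in 8 of the 33 members (24.2%), beside 10.2% of the 8959 genes tested that had a promoter. The longer GTCACGTG, on either strand, was found in 6 members (18.2%), beside 4.05% of these genes, and each such match also counts as CACGTG. GTCACGTG followed by AC was found in 0 members and in 0.659% of these genes. The 5 members with CACGTG and the largest absolute log2 fold change are shown, 5′ to 3′ on the strand of the gene and ending at the base before the start, with CACGTG in capitals, because they show how many copies a promoter held and where.

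Naglu, chr11:101069844-101070093, plus strand: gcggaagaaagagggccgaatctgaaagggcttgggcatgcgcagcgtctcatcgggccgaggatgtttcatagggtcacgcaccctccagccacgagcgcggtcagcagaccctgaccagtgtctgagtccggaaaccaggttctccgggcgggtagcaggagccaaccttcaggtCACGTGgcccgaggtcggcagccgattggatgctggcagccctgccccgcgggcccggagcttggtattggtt
Mcoln1, chr8:3500269-3500518, plus strand: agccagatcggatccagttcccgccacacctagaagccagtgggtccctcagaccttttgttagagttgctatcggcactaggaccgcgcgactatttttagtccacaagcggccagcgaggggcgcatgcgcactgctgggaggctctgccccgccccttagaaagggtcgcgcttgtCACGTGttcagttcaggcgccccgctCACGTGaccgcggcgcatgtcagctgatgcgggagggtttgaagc
Gla, chrX:134601006-134601255, minus strand: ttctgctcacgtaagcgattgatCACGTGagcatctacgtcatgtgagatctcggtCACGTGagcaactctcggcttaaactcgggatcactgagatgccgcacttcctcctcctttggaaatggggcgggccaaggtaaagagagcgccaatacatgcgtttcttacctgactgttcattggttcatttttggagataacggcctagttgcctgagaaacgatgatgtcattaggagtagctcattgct
Gaa, chr11:119267713-119267962, plus strand: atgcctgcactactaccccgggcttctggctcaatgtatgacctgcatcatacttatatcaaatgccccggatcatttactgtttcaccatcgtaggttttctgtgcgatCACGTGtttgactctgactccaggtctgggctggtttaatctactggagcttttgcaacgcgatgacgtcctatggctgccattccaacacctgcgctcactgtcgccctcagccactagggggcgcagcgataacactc
Lamp1, chr8:13158911-13159160, plus strand: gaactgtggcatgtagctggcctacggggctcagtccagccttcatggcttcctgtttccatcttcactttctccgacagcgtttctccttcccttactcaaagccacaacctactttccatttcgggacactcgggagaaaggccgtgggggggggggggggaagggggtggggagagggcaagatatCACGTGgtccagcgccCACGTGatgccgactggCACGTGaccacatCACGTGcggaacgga

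*Lamp1* held 4 copies, all within 61 bases of the start, *Mcoln1* and *Gla* held 2 each, and *Naglu* and *Gaa* held 1 each. The other members with CACGTG were *Atp6v1a*, *Glb1* and *Arsa*. None of these 8 members was called, and their log2 fold changes ran from -0.16 to 0.11 with a median of -0.08. The 8 members called lower that had a promoter in the table held no CACGTG in these windows, nor did the 17 others that were not called. A match of letters is a description of the sequence, and binding was not measured.

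The other genes of the lysosome were followed in lists that share no gene with the 37 members. Their counts stand beside 9.27% called lower and 10.9% called higher over all genes tested. Of 12 further V-ATPase subunits tested, 3 were called lower and 0 higher, with a median log2 fold change of -0.14, and all 12 had a log2 fold change below 0. The 3 were the V1 subunits *Atp6v1e1* (198.9 ± 7.07 to 158 ± 7.19 FPKM, SD, n = 2 each) and *Atp6v1d* (91.7 ± 0.0608 to 80.2 ± 0.829 FPKM), and *Atp6v0a1* of V0 (102 ± 1.51 to 84.6 ± 5.79 FPKM). Their adjusted p-values were 0.0195, 0.0323 and 0.0379 (limma). At an unadjusted p under 0.05 the count of higher subunits was also 0.

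Of 28 further hydrolases and their activators tested, 6 were called lower and 0 higher, the latter also at an unadjusted p under 0.05 (median log2 fold change -0.18). *Plbd1*, a phospholipase B-like protein, had 94.1 and 79.6 FPKM in Control and 43.5 and 45.8 FPKM with G-CSF, and the log2 fold change came to -0.95 (adjusted p = 0.0103, limma). *Naaa*, an acid amidase, had 167 and 181 FPKM in Control and 113 and 127 FPKM with G-CSF (log2 fold change -0.54, adjusted p = 0.0162).

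The list of 34 further membrane proteins and transporters held the most calls, with 16 lower and 0 higher (1 at an unadjusted p under 0.05, *Tpcn1*) and a median log2 fold change of -0.22. The smallest p-values were those of *Cyb561a3* (log2 fold change -0.36, adjusted p = 0.0193, limma), *Laptm4a* (-0.27, adjusted p = 0.0196) and *Sidt2* (-0.28, adjusted p = 0.0228). *Mcoln3*, a relative of *Mcoln1* named here after its values were seen, was past a fold change of 2 at a low level, with 2.33 and 3.05 FPKM in Control and 1.39 and 1.15 FPKM with G-CSF (log2 fold change -1.02, adjusted p = 0.029). Of 12 cathepsins and legumain tested, 4 were called lower and 0 higher, again also at an unadjusted p under 0.05 (median -0.24), with the smallest p-values for *Ctsh* (-0.48, adjusted p = 0.0132), *Ctss* (-0.41, adjusted p = 0.0132) and *Lgmn* (-0.30, adjusted p = 0.0198). With each library left out in turn, at most 1 gene of these 4 lists together was called. Without the trend in the variance prior 0 were called, and with no filter 9 of the further membrane proteins in place of 16 were called lower.

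**Figure D4:**
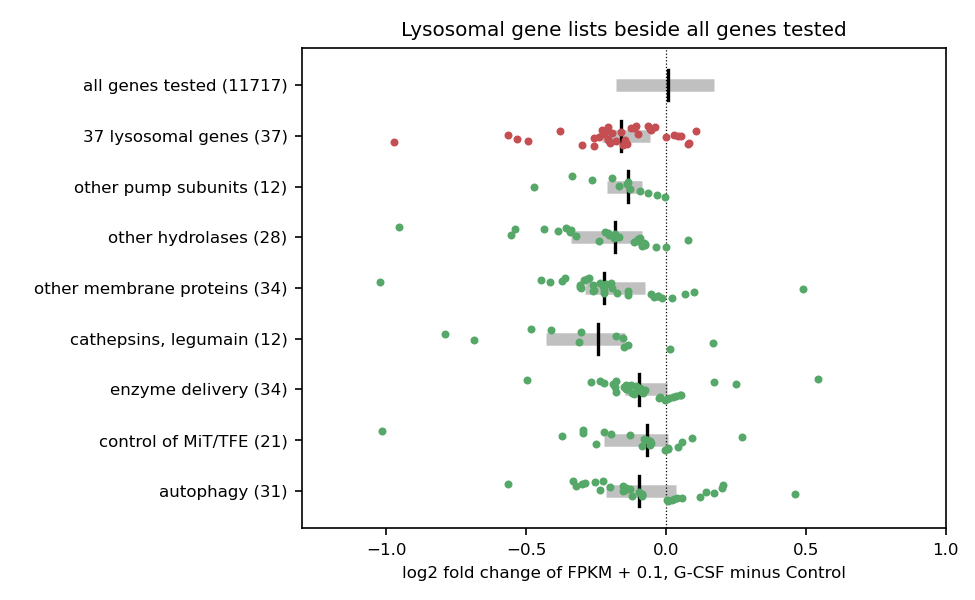
Each row shows the log2 fold changes (horizontal axis, G-CSF minus Control on the log2(FPKM + 0.1) scale) of a list of lysosomal genes, with 1 point a gene, a black line at the median and a grey bar over the middle 50% of genes, and the number of genes tested in parentheses. The median of the 37 genes is -0.16 and that of all genes tested 0.01.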

How the data were processed

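RNA-seq values of 2 Control and 2 G-CSF libraries were used as deposited. The deposited FPKM values were inferred to be such, since no header names the unit, from their form and from Cufflinks 2.2.1, which the submitters' processing notes name with TopHat2 2.0.13, Bowtie2 2.2.3, SAMtools 0.1.19 and mm10. The annotation, the filters and any use of strand are not given in the sources used here, and reads that fit more than 1 gene may be split between rows. Libraries were stranded mRNA read over 75 bases from a single end.

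Depth was estimated from the steps between low FPKM values of genes with 1 GENCODE M21 transcript, its length shortened by 210 bases, where 65.3% to 70.7% of low values fell within 0.05 reads of a whole number. Estimated reads per gene use the median length of its coding transcripts and are approximate. Differences were tested with limma 3.58.1 (R 4.3.3, lmFit and eBayes with trend, two-sided) on log2(FPKM + 0.1) in genes with a mean of at least 0.5 FPKM over the 4 libraries, with Benjamini-Hochberg adjustment across the 11717 genes that passed. The planned rule named every member and the 3 genes with the smallest p of each other list, and other genes named among the lists and markers were chosen after their values were seen. A gene that the rule named among the further hydrolases is not reported here. The members and lists were chosen with earlier results of these data known. No protein sequences were used. The 15 alternatives covered pseudocounts, filters, scaling, the variance prior, the replicate block, libraries left out and the summed *Atp6v0c* rows, and the steps were tested on simulated data. Figures were drawn with matplotlib 3.10.9.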

Additional observations from a re-analysis of the deposited data

How the results depend on the processing

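With each library left out, between 30 and 32 of the 37 members had a log2 fold change below 0, and their median ranged from -0.19 to -0.12. The sign was that of the full data in 36 members without Control replicate 1, 35 without Control replicate 2, 33 without G-CSF replicate 1 and 37 without G-CSF replicate 2. Other filters, variance priors and the block cannot change a log2 fold change. Percentages in the next sentences are the share of all genes tested called lower in the same setting. The number of members called lower was 9 with pseudocounts of 1 (9.11%) and 0.01 FPKM (9.72%), a mean of at least 1 FPKM (10%) and median-ratio scaling (9.35%). It was 6 with no filter (4.58%), 10 with a mean of at least 5 FPKM (12.6%) and 12 with upper-quartile scaling (9.67%). With a filter on estimated reads, added after the values were seen, it was 11 (10.3%). Without the trend in the variance prior it was 0 (15 members at an unadjusted p under 0.05, beside 4036 of all genes tested). All genes called then numbered 27, all past a fold of 2. With each library left out, where the lone library of a group is assumed to vary like the others, it was 0 each time, all genes called numbered 32 to 50 in place of 2367, and those past a fold of 2 numbered 32 to 47 in place of 138. With a pseudocount of 1 FPKM or a mean of at least 5 FPKM, 66 and 54 genes were past a fold of 2. With the replicate block, 15 members were called lower, among them all 9, and 0 higher. Over all genes tested, 1485 (12.7%) were then called lower and 1576 higher. The replicate numbers are not known to pair the cultures: the deviations of same-numbered libraries correlated at r = 0.147 across all genes tested and at r = 0.01 across the members. Upper-quartile and median-ratio scaling turned the sign of *Smpd1*, which lay near 0, and of no other member. Depth is known only as an estimate, and with 2 libraries in each group a member that was not called is not shown to be equal in both.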

Other observations

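Genes that deliver enzymes to the lysosome, control the MiT/TFE factors or build autophagosomes were followed in 3 further lists. Of 34 genes of enzyme delivery tested, 3 were called lower and 1 higher (limma, adjusted p under 0.05), where 9.27% of all genes tested were called lower and 10.9% higher, with a median log2 fold change of -0.10. *Ap3s1*, a subunit of the AP-3 adaptor that sorts membrane proteins to lysosomes, rose from 110 and 112 FPKM in Control to 168 and 156 FPKM with G-CSF (log2 fold change 0.54, standard error 0.0501, adjusted p = 0.0103). *Igf2r*, a receptor for the mannose 6-phosphate tag of hydrolases, fell from 6.89 and 6.82 FPKM to 4.64 and 5.02 FPKM (log2 fold change -0.50, adjusted p = 0.0227), and *Rab7*, the small GTPase of late endosomes, had a log2 fold change of -0.18 (adjusted p = 0.0379). With each library left out in turn, 0 genes of this list were called.

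A list of 21 genes held the mTORC1 and calcineurin machinery that sets where the MiT/TFE factors reside, a 14-3-3 gene, and *Tfec*, itself a factor of that family. Of these, 2 were called lower and 0 higher (1 at an unadjusted p under 0.05, *Tfec*), a share lower close to that of all genes tested, with a median of -0.07. *Rragd*, a Rag GTPase, had 2.79 and 2.15 FPKM in Control and 1.26 and 1.07 FPKM with G-CSF (log2 fold change -1.02, limma adjusted p = 0.0288), and *Ppp3ca*, a catalytic subunit of calcineurin, had a log2 fold change of -0.30 (adjusted p = 0.0249). *Rragc* had the next smallest p and did not pass (-0.22, adjusted p = 0.0671). The other catalytic subunits of calcineurin were not called. *Ppp3cb* lay higher in both G-CSF libraries (log2 fold change 0.09), and the groups overlapped in *Ppp3cc* (-0.08). Of 31 autophagy genes, 6 were called lower and 0 higher (2 at an unadjusted p under 0.05, *Atg12* and *Atg101*), beside 9.27% and 10.9% of all genes tested. The median was -0.10, with the smallest limma p-values for *Gabarap* (-0.33, adjusted p = 0.015), *Map1lc3b* (-0.23, adjusted p = 0.0238) and *Atg7* (-0.25, adjusted p = 0.0278). With each library left out in turn, 0 genes of these lists were called.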
